A study of Mus musculus with 6 samples.

Results

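The NF-κB subunits and inhibitor proteins are represented here by 10 genes chosen by name. These are *Rela*, *Rel*, *Relb*, *Nfkb1* and *Nfkb2* for the subunits and *Nfkbia*, *Nfkbib*, *Nfkbie*, *Nfkbiz* and *Bcl3* for the inhibitors. Each of the 10 has a row in the deposited table of 17554 genes, and each passed the filter on low counts that left 12667 genes for testing. Corneal epithelium was taken from C57BL/6 mice at 2 months of age and sequenced as bulk RNA, so that each value is an average over all cells of a sample. The study compared 3 control mice, labelled WT, with 3 mice labelled *Rela*-/-, which the study's methods describe as *Krt14-Cre; Rela* f/f and which are called mutant here. In these mutant mice the keratin 14 promoter drives the Cre recombinase, so *Rela* is removed in cells that use or once used that promoter and not in the whole animal. Whether the control mice carried Cre or a floxed allele is not given in the sources used here. The comparison asks how the levels of the other parts of the NF-κB system differed in an epithelium from which *Rela* was removed.

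NF-κB is a family of dimeric transcription factors. RelA, c-Rel and RelB carry a transactivation domain, whereas the products of *Nfkb1* and *Nfkb2* are made as the long precursors p105 and p100, which hold other subunits back until they are processed to p50 and p52. In resting cells the classical IκB proteins keep dimers in the cytoplasm. Receptors for TNF, IL-1 and microbial products activate the IκB kinase, the inhibitor is degraded, and the freed dimers induce genes that include several of their own inhibitors. In surface epithelia such as the cornea the pathway is best known for responses to injury and microbes.

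One property that the choice by name did not use is the DNA sequence before these genes. The RefSeq promoter table of GRCm38.p6, which gives 250 bases before to 50 bases after each start site, held windows of 7 of the 10 genes. The κB consensus motif, searched on both strands with overlapping matches allowed, was found in windows of 5 of these 7, *Bcl3*, *Rel*, *Nfkbia*, *Nfkbie* and *Nfkb2*. The windows of *Rela* and *Nfkbib* held no match. Over all genes in the table, 5.14% of 27025 had a match in at least 1 window. A match describes the letters only. The stretches below, with the matched bases in capitals and written 5′ to 3′ on the strand of the gene, are shown because their genes were the ones past the test with a match, together with *Nfkb2*, which had matches at several of its start sites. They lie on GRCm38.p6 at chr11:23771016-23771096 on the minus strand for *Rel*, at chr12:55492648-55492711 on the minus strand for *Nfkbia*, at chr7:19822744-19822788 on the minus strand for *Bcl3* and at chr19:46304663-46304736 on the plus strand for *Nfkb2*.
Rel: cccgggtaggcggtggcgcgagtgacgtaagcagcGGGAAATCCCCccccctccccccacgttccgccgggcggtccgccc
Nfkbia: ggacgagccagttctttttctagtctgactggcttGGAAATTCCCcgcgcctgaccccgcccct
Bcl3: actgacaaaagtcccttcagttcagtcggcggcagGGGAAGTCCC
Nfkb2: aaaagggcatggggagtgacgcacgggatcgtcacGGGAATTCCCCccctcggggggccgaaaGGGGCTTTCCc
The *Nfkbia* match began 29 bases before the start site and that of *Rel* 92 bases before it. In *Bcl3* the match began at base 3 after the start site. In the *Nfkb2* window shown, matches began 39, 38 and 11 bases before the start.

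The 6 samples had 19492942 to 19733834 expected counts, estimates that divide a read among the genes it fits, so depth was nearly equal between the groups. A gene was taken as detectable from 3 counts, which here equalled 0.152 to 0.154 CPM (counts scaled to the total of the sample), a limit that covers counting error only. *Krt12*, the keratin that defines corneal epithelium, had 17005 to 21194 FPKM in each of the 6 samples, where FPKM are read fragments corrected for the depth of the sample and the length of the transcript. On log2 CPM, the main principal component, with 65.1% of the variance, split the samples by genotype. The next one held 11.5% and set mutant 1 apart from mutant 3. Levels are given below as FPKM. Genotype differences are log2 fold changes of mutant over control, fitted with the edgeR quasi-likelihood test on rounded expected counts, with the standard error (SE), and p-values were adjusted by Benjamini-Hochberg across the 12667 tested genes and called at 0.05.

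*Rela*, on chromosome 19 of GRCm38 from 5635891 to 5649631, is the targeted gene, which checks the labels. Its FPKM was 36.5, 34.7 and 33.4 in controls and 4.93, 5.53 and 5.72 in mutants. Every mutant value lay far below every control value, and *Rela* had the smallest p of all genes tested. The log2 fold change was -2.75 (SE 0.085), which left 14.9% of the control level (adjusted p = 5.5e-07 by the edgeR quasi-likelihood test after Benjamini-Hochberg adjustment). The remaining signal came from 230, 260 and 270 counts, against 1614 to 1799 counts in controls. These counts cover all exons of the gene, removed or not, and in bulk samples fewer cells that express a gene cannot be told apart from less RNA per cell. The leukocyte markers differed in level. *Ptprc*, the pan-leukocyte marker CD45, had 0.01 to 0.15 FPKM over the 6 samples, whereas *Cd68* had 17.3 to 24.5 FPKM and *Itgam* 51.0 to 94.8 FPKM. The part of leukocytes in the remaining *Rela* signal was not tested.

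*Rel*, on chromosome 11 from 23733350 to 23770970, encodes c-Rel, a subunit that like RelA carries a transactivation domain and is held by classical IκB proteins. Its FPKM was 5.07, 5.79 and 5.04 in controls and 7.96, 7.07 and 7.65 in mutants. The groups did not overlap, and the 3 mutant samples lay close together. *Rel* rose 1.42-fold (log2 fold change 0.51, SE 0.098, adjusted p = 0.00886, edgeR quasi-likelihood test). *Nfkb1*, on chromosome 3 from 135584655 to 135691982, encodes the precursor p105 and its product p50, the most common partner of RelA. It had 21.8, 22.7 and 20.8 FPKM in controls and 33.9, 26.4 and 28.1 FPKM in mutants. The 2 groups stood apart, and mutant 1 was the highest. *Nfkb1* rose 1.36-fold (log2 fold change 0.44, SE 0.099, adjusted p = 0.0174, edgeR quasi-likelihood test). With any 1 of the 3 control samples left out its adjusted p was 0.0593 to 0.0744 in the same test, past the threshold in none of the 3 fits, with log2 fold changes of 0.42 to 0.46.

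The subunits of the alternative pathway did not pass the test. *Relb*, on chromosome 7 from 19606217 to 19629438, encodes RelB, which pairs mainly with p100 and p52. Its FPKM was 3.78, 3.08 and 2.97 in controls and 1.87, 2.23 and 3.26 in mutants. Mutant 1 and mutant 2 lay below the controls, whereas mutant 3 fell among them. The log2 fold change was -0.44 (SE 0.20) with a 95% interval of -0.87 to 0.0014 and an adjusted p of 0.178 in the edgeR quasi-likelihood test. Without mutant 3 it was -0.67, with an adjusted p of 0.0395 in the same edgeR test. *Nfkb2*, on chromosome 19 from 46303585 to 46319534, encodes p100 and p52. It had 12.04, 11.2 and 10.3 FPKM in controls and 8.75, 9.97 and 11.7 FPKM in mutants, and the groups overlapped. Its log2 fold change was -0.14, with a 95% interval of -0.37 to 0.10 (adjusted p = 0.447, edgeR quasi-likelihood test). In the mutants both genes had their lowest value in mutant 1 and their highest in mutant 3. Of the exon bases of *Nfkb2* in GENCODE, 6.52% also lie in exons of *Psd* and 11.6% in exons of the lncRNA AC114539.1, both on the opposite strand, and the counting is not stated to use strand.

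**Figure D1:**
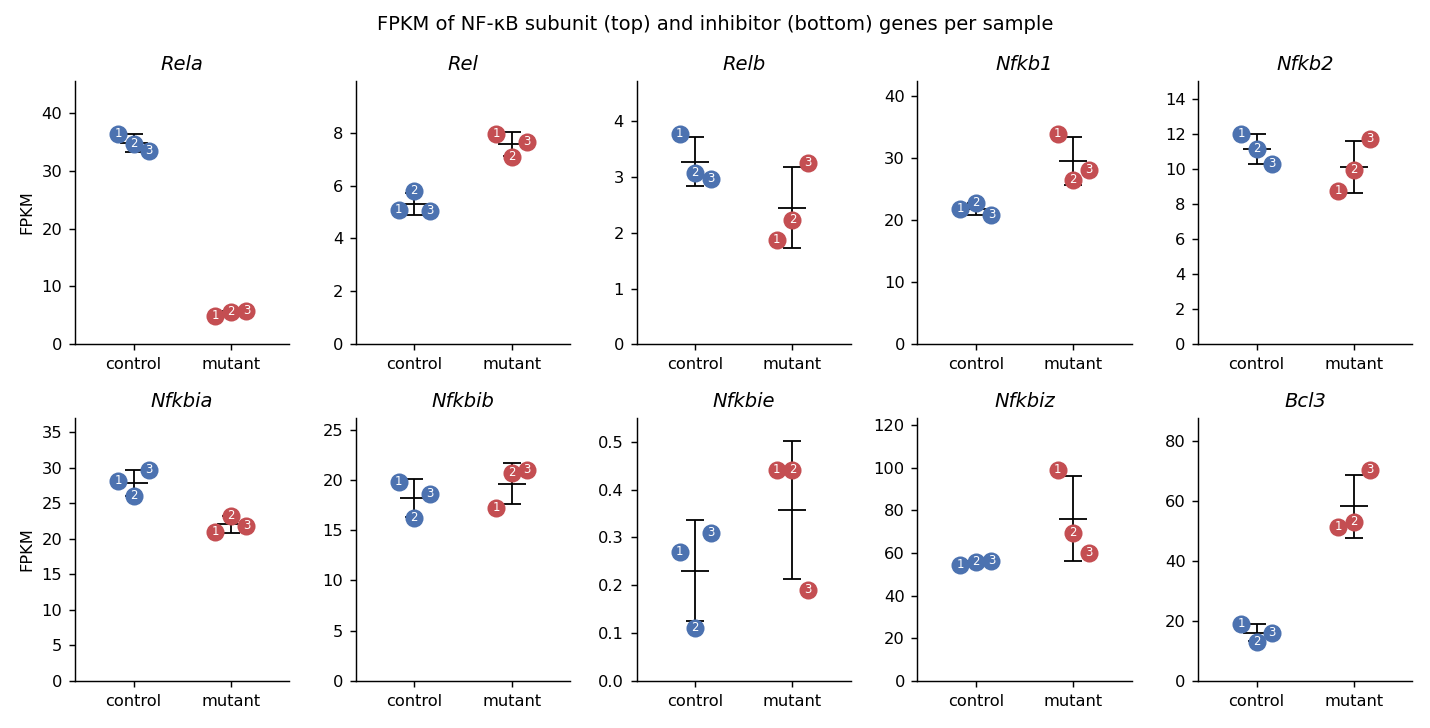
FPKM (vertical axes, each starting at 0) of the 5 subunit genes in the top row and the 5 inhibitor genes in the bottom row. Each numbered point is 1 sample of that replicate number, the long dash is the mean of 3 samples and the bars are ± 1 SD; the groups of *Rela*, *Rel*, *Nfkb1*, *Nfkbia*, *Nfkbiz* and *Bcl3* do not overlap, and the spread of *Nfkbiz* in mutants runs from 60.2 to 98.8 FPKM.

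The makeup of the subunit transcripts therefore differed between the genotypes. The values are a description, since each share depends on the other genes in the sum. The FPKM of the 5 subunit genes summed to 76.4 ± 3.5 (SD, n = 3) in controls and to 55 ± 3.3 (SD, n = 3) in mutants, with ranges of 72.5 to 79.2 and 51.2 to 57.4. *Rela* made up 45.6% ± 0.72 (SD, n = 3) of the sum in controls and 9.83% ± 1.1 (SD, n = 3) in mutants. *Nfkb1* made up 28.5% ± 0.86 (SD, n = 3) and 53.5% ± 4.9 (SD, n = 3), so that p105 was encoded by the most abundant subunit transcript in each mutant sample. The share of *Rel* was 6.94% ± 0.54 (SD, n = 3) in controls and 13.8% ± 0.15 (SD, n = 3) in mutants. Among the genes with a transactivation domain, *Rel* therefore stood above *Rela* in each of the 3 mutants, with 7.07 to 7.96 FPKM against 4.93 to 5.72 FPKM, where in controls *Rela* was at 33.4 to 36.5 FPKM and *Rel* at 5.04 to 5.79 FPKM.

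Of the classical inhibitors, which bind dimers in the cytoplasm, only *Nfkbia* passed the test. It lies on chromosome 12 from 55489409 to 55492647 and encodes IκBα, the inhibitor best known as a target of NF-κB itself. Its FPKM was 28.1, 26.0 and 29.6 in controls and 21.0, 23.3 and 21.9 in mutants. Controls and mutants did not overlap. The log2 fold change was -0.34 (SE 0.085), which left 78.8% of the control level (adjusted p = 0.0276, edgeR quasi-likelihood test). The call was lost without control 1 (adjusted p = 0.0754), control 3 (adjusted p = 0.106) or mutant 3 (adjusted p = 0.0683) in the same edgeR test, with log2 fold changes of -0.35, -0.29 and -0.33. *Nfkbib*, on chromosome 7 from 28758251 to 28766644, encodes IκBβ. It had 19.8, 16.2 and 18.7 FPKM in controls and 17.3, 20.7 and 21.0 FPKM in mutants, and the groups overlapped. Its log2 fold change was 0.09, with a 95% interval of -0.14 to 0.32 (adjusted p = 0.615, edgeR quasi-likelihood test). Of its exon bases in GENCODE, 14.5% lie in exons of *Ccer2* and 1.94% in exons of *Sirt2*, on the opposite strand. *Nfkbie*, on chromosome 17 from 45555684 to 45567669, encodes IκBε and was close to the limit of detection. It had 13, 5 and 15 counts in controls and 21, 21 and 9 in mutants, or 0.11 to 0.44 FPKM. A difference was not detectable at this depth (log2 fold change 0.62, 95% interval -0.44 to 1.68, adjusted p = 0.438, edgeR quasi-likelihood test).

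*Bcl3*, on chromosome 7 from 19808462 to 19822767, showed the largest rise of the 10 genes. It encodes a nuclear member of the IκB family that binds p50 and p52 homodimers and can either repress or activate their targets. Its FPKM was 18.9, 13.1 and 16.1 in controls and 51.3, 53.1 and 70.1 in mutants. Each mutant sample lay well above the highest control sample, and mutant 3 was the highest. The mean was 16.02 ± 2.89 FPKM (SD, n = 3) in controls and 58.1 ± 10.4 FPKM (SD, n = 3) in mutants. *Bcl3* rose 3.62-fold (log2 fold change 1.85, SE 0.15, 95% interval 1.52 to 2.19, adjusted p = 7.59e-05, edgeR quasi-likelihood test) and ranked 56 by p among the 12667 genes. In GENCODE, 6.51% of its exon bases lie in exons of the antisense gene *Gm16175*.

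*Nfkbiz*, on chromosome 16 from 55811279 to 55839074, encodes IκBζ, a nuclear IκB protein that binds p50 and is needed for a set of late inflammatory genes. It had 54.5, 55.8 and 56.3 FPKM in controls and 98.8, 69.6 and 60.2 FPKM in mutants. The groups did not overlap, but the mutants were spread widely, with mutant 1 the highest and mutant 3 near the controls. Its log2 fold change of 0.46 (SE 0.16, 95% interval 0.10 to 0.82) had an adjusted p of 0.092 in the edgeR quasi-likelihood test. DESeq2 gave 0.46 with an adjusted p of 0.0196, and edgeR without mutant 3 gave 0.61 with an adjusted p of 0.0186. Without mutant 1 the edgeR value was 0.22. *Bcl3*, by contrast, was lowest in mutant 1 and highest in mutant 3.

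**Figure D2:**
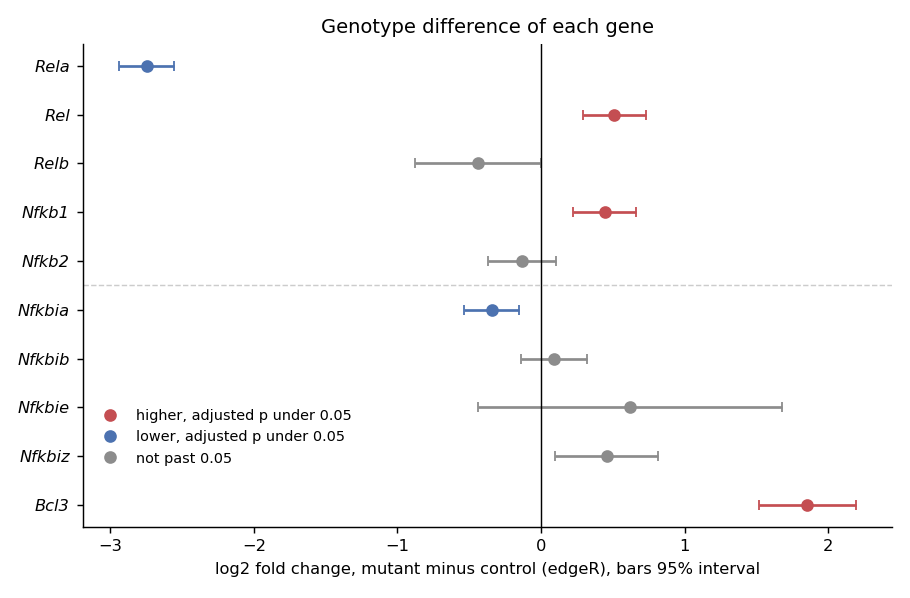
Log2 fold change of mutant over control (horizontal axis) of the subunit genes above the dashed line and the inhibitor genes below it, from edgeR with all 6 samples; bars are 95% intervals and colours give the call at an adjusted p of 0.05. *Rela* at -2.75 and *Bcl3* at 1.85 lie farthest from 0, and the intervals of *Relb*, *Nfkb2*, *Nfkbib* and *Nfkbie* include 0.

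The sum over the 5 inhibitor genes was higher in mutants, whereas that over the subunits was lower. The subunit sum includes the targeted gene *Rela*, whose mean went from 34.9 to 5.39 FPKM, a larger fall than that of the sum. The inhibitor sum was 118 ± 5.9 FPKM (SD, n = 3) in controls and 176 ± 11 FPKM (SD, n = 3) in mutants, ranging from 111 to 122 and from 167 to 189. Its rise lay mostly in the nuclear members. The mean of *Bcl3* went from 16.02 to 58.14 FPKM and that of *Nfkbiz*, which did not pass the test, from 55.51 to 76.2 FPKM. Of the classical inhibitors, *Nfkbia* went from 27.92 to 22.04 FPKM, and the means of *Nfkbib* and *Nfkbie*, which did not pass, were slightly higher. Since *Bcl3* can also activate targets, the sum does not measure inhibition. *Nfkbiz* was the most abundant inhibitor transcript in controls, with 47.2% ± 2.8 (SD, n = 3) of the sum, and it held 42.9% ± 8.9 (SD, n = 3) in mutants. *Bcl3* held 13.5% ± 1.9 (SD, n = 3) and 33.2% ± 6.8 (SD, n = 3), and *Nfkbia* 23.7% ± 0.74 (SD, n = 3) and 12.5% ± 1.4 (SD, n = 3). The share of *Bcl3* was thus higher in mutants, and the mean shares of *Nfkbiz* and *Nfkbia* were lower. *Nfkbib* held 15.4% ± 0.85 (SD, n = 3) and 11.2% ± 1.8 (SD, n = 3), although its mean FPKM was 18.2 in controls and 19.6 in mutants. *Nfkbie* held 0.192% ± 0.083 (SD, n = 3) and 0.202% ± 0.081 (SD, n = 3). In the order of mean FPKM over the 10 genes, *Rela* stood at rank 2 in controls and rank 8 in mutants, and *Bcl3* at rank 6 and rank 2. Neighbouring genes in that order overlapped in FPKM for *Nfkbib* and *Bcl3* in controls, and for *Nfkbiz* and *Bcl3* and for *Nfkbia* and *Nfkbib* in mutants, where the last pair met at 21.0 FPKM. The other neighbours did not overlap.

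**Figure D3:**
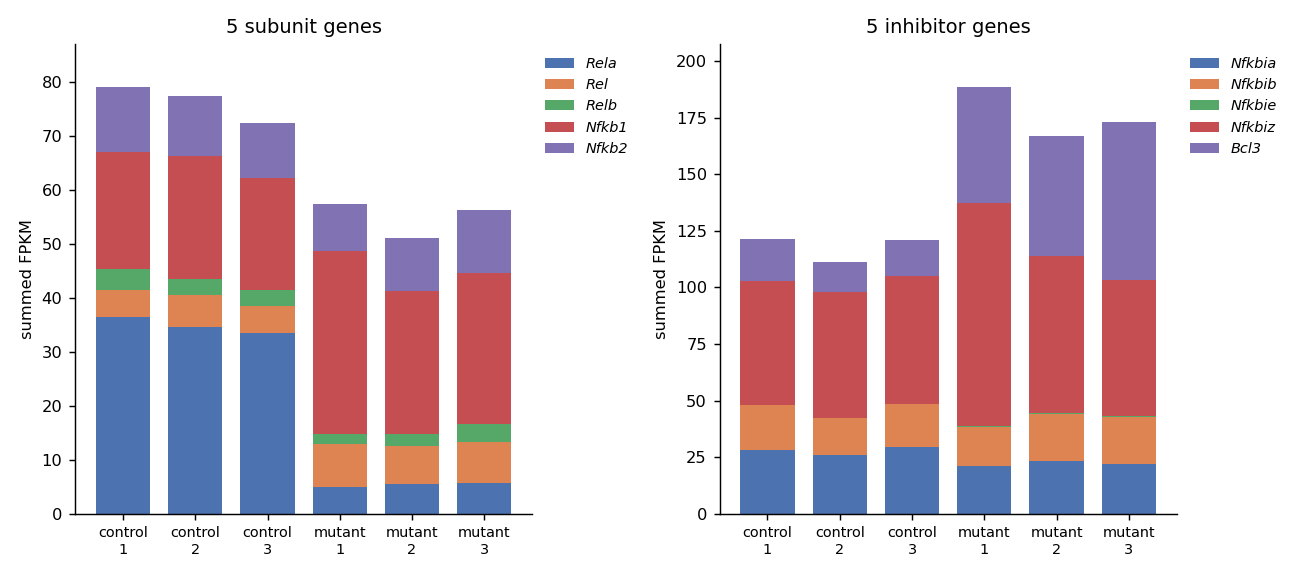
Summed FPKM (vertical axes, from 0) of the 5 subunit genes at the left and the 5 inhibitor genes at the right, 1 bar per sample, with a colour for each gene. The subunit sum lies at 72.5 to 79.2 in controls and 51.2 to 57.4 in mutants, with the *Rela* block shrunken, while the inhibitor sum lies at 111 to 122 and 167 to 189.

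Of the 10 genes, 5 passed the test, 3 of them higher (*Rel*, *Nfkb1* and *Bcl3*) and 2 lower (*Rela* and *Nfkbia*), in the edgeR quasi-likelihood test. Among all genes tested, 13.2% passed, 7.82% higher and 5.42% lower. Without *Rela*, the targeted gene, 4 of 9 passed. The FPKM of the 2 groups did not overlap for 6 of the 10 genes, as for 32.6% of all genes tested. At the threshold of the study's methods, with a fold change of 2 or more and an adjusted p no higher than 0.001, *Rela* and *Bcl3* remained, against 1.37% of all genes. The median log2 fold change was 0.27 over the 10 genes and -0.0028 over all genes tested. The number past the test was 3 without control 1 and 3 without control 3, when *Nfkb1* and *Nfkbia* were lost.

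**Figure D4:**
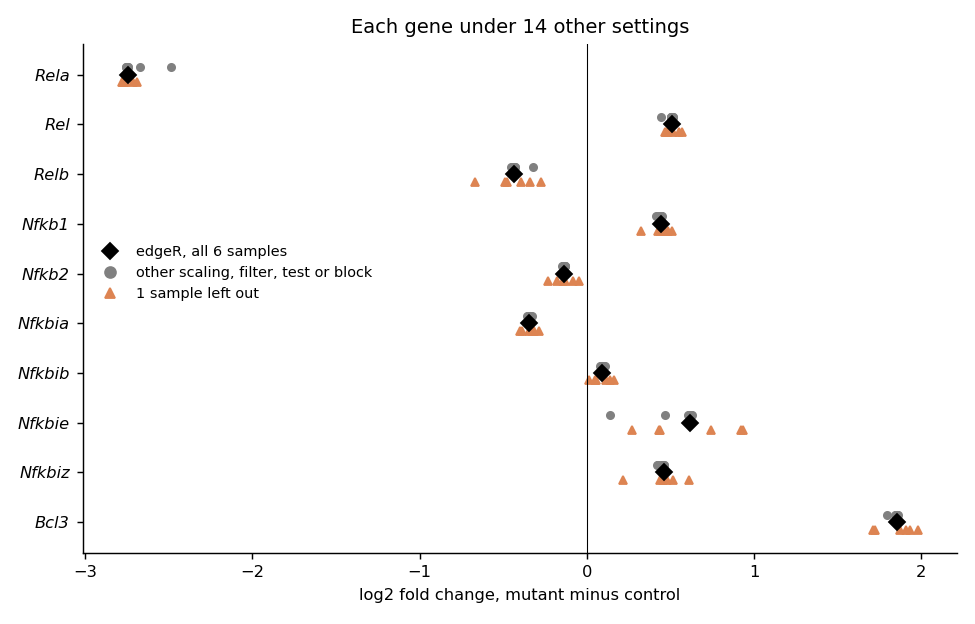
Log2 fold change of mutant over control (horizontal axis) of each gene in edgeR with all 6 samples (diamonds), under the other scalings, filters, tests and the replicate block (circles) and with 1 sample left out (triangles). No gene crossed 0; *Rela* stayed between -2.78 and -2.49 and *Bcl3* between 1.71 and 1.98, while *Nfkbie* ran from 0.14 to 0.93.

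The other genes of the pathway were grouped by role into 6 lists. Of 114 genes listed, 88 passed the filter on low counts, of which 22 were higher and 5 lower in the edgeR quasi-likelihood test. Of the 22, 8 reached the minimum count in all mutants but not in all controls, and 1 of the 5 (*Ltb*) in all controls but not in all mutants, so these entered the test through the group in which they are high and their share of the list is not set against that of all genes. Among the 78 genes that reached it in all 6 samples, 14 were higher and 4 lower. Over all genes tested, 11927 reached it in all 6 samples, of which 838 were higher and 675 lower. With 10 counts required in every sample, 19 pathway genes passed in place of 27. The number past the test was 13 without control 2 and 15 without control 3, and at the study's threshold it was 2.

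The first list holds kinases that pass the signal on, together with some of their regulatory and binding partners. Of 11 tested genes in it, 2 rose and 0 fell, or 18.2%, against 13.2% of all genes tested. Their median log2 fold change was 0.077. At an unadjusted p of 0.05 edgeR found 0 lower, as did DESeq2 after adjustment. *Map3k8* encodes Tpl2, a kinase that p105 holds inactive, and it rose from 4.88, 5.39 and 5.21 FPKM in controls to 10.6, 8.27 and 8.32 FPKM in mutants (log2 fold change 0.82, SE 0.12, adjusted p = 0.00192, edgeR quasi-likelihood test). The 2 groups stood apart. *Map3k14*, which encodes the NIK kinase of the alternative pathway, rose from 1.37, 1.38 and 1.38 FPKM to 2.15, 1.91 and 2.30 FPKM (log2 fold change 0.62, SE 0.13, adjusted p = 0.0105 in the same edgeR test). *Ikbkb*, the main catalytic subunit of the IκB kinase, had a log2 fold change of 0.04 with a 95% interval of -0.11 to 0.20 (adjusted p = 0.736, edgeR quasi-likelihood test).

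The adaptor list holds proteins that link the receptors to these kinases, some of them kinases themselves. Of 18 tested, 1 rose and 1 fell, or 11.1%, against 13.2% of all genes tested. Their median log2 fold change was 0.011. *Myd88*, the adaptor of IL-1 and Toll-like receptors, rose from 19.3 to 22.6 FPKM in controls to 24.9 to 26.9 FPKM in mutants (log2 fold change 0.32, adjusted p = 0.031, edgeR quasi-likelihood test). *Traf5*, an adaptor of TNF receptor family members, fell from 21.8 to 24.6 FPKM to 15.3 to 19.7 FPKM (log2 fold change -0.41, adjusted p = 0.0297 in the same edgeR test).

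Of 20 tested negative regulators other than the IκB proteins, 4 rose and 1 fell, with a median log2 fold change of -0.0096. The negative regulator that fell was *Tnfaip3*, which encodes the ubiquitin-editing enzyme A20 and, like *Nfkbia*, is a known NF-κB target. Its FPKM was 5.10, 4.72 and 5.05 in controls and 3.12, 2.17 and 1.91 in mutants. Controls and mutants did not overlap (log2 fold change -1.04, SE 0.17, adjusted p = 0.00345, edgeR quasi-likelihood test). *Zc3h12a*, which encodes the RNase Regnase-1 that degrades inflammatory mRNAs, rose from 15.01, 13.3 and 16.03 FPKM to 30.5, 30.7 and 26.8 FPKM (log2 fold change 0.99, adjusted p = 0.000313 in the same edgeR test). *Tnip2*, which encodes an A20-binding protein that also stabilizes Tpl2, rose from 8.38 to 9.02 FPKM in controls to 12.3 to 13.9 FPKM in mutants (log2 fold change 0.55, adjusted p = 0.00268, edgeR quasi-likelihood test). *Nlrc5* and *Trim40* also passed, the first at no more than 0.15 FPKM in any sample and above the minimum count in all mutants but not in all controls. *Trim40* was named after its values were seen.

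Of 13 tested receptors, 3 rose and 0 fell, or 23.1%, against 13.2% of all genes tested. Their median log2 fold change was 0.23. Neither edgeR at an unadjusted p of 0.05 nor DESeq2 after adjustment found a lower one, each giving 0. *Tnfrsf1a*, the main TNF receptor, had 74.8, 63.4 and 62.5 FPKM in controls and 109, 115 and 136 FPKM in mutants (log2 fold change 0.84, SE 0.099, adjusted p = 0.000665, edgeR quasi-likelihood test). The groups did not overlap. *Tnfrsf12a*, the receptor of TWEAK, rose from 6.86 to 12.2 FPKM to 23.4 to 29.3 FPKM (log2 fold change 1.47, adjusted p = 0.000787 in the same edgeR test). *Ltbr*, the lymphotoxin β receptor, rose from 28.7 to 34.5 FPKM to 37.8 to 42.2 FPKM (log2 fold change 0.32, adjusted p = 0.0307, edgeR quasi-likelihood test).

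The ligands moved in both directions. Of 7 tested, 3 rose and 2 fell. Of these, *Il1b* reached the minimum count in all mutants but not in all controls, and *Ltb* the reverse. Among the 4 that reached it in all 6 samples, 2 rose and 1 fell, against 838 and 675 of 11927 over all genes tested. *Tnf* had 7.24, 6.62 and 6.20 FPKM in controls and 3, 2.27 and 0.77 FPKM in mutants. The 2 groups stood apart, and mutant 3 was the lowest (log2 fold change -1.73, SE 0.34, adjusted p = 0.010, edgeR quasi-likelihood test). *Ltb*, which encodes lymphotoxin β and was named after its values were seen, fell from 1.05 to 1.42 FPKM to 0.19 to 0.71 FPKM (log2 fold change -1.72, adjusted p = 0.033 in the same edgeR test). *Il18* did not pass the test, at a log2 fold change of -0.02 (adjusted p = 0.935, edgeR quasi-likelihood test). *Il1a* rose from 25.7 to 30.6 FPKM to 39.8 to 43.9 FPKM (log2 fold change 0.55, adjusted p = 0.00406, edgeR quasi-likelihood test), and *Il33*, an epithelial alarmin, from 1.45 to 2.14 FPKM to 2.86 to 6.45 FPKM (adjusted p = 0.0209 in the same edgeR test). *Il1b* had 4, 7 and 3 counts in controls and 110, 25 and 14 in mutants, with mutant 1 the highest (adjusted p = 0.0278, edgeR quasi-likelihood test).

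Of 19 tested genes in the list of known NF-κB targets, 9 rose and 1 fell. *Nfkbia* and *Tnfaip3*, also known targets, were lower but were counted in other groups, so this tally depends on how genes were sorted. Of the 9, 6 (*Cxcl1*, *Icam1*, *Csf3*, *Lcn2*, *Ptgs2* and *Saa3*) reached the minimum count in all mutants but not in all controls and so entered the test through the group in which they are high, and *Cxcl1*, *Icam1* and *Lcn2* are named here after their values were seen. Among the 13 that reached it in all 6 samples, 3 rose and 1 fell, against 838 and 675 of 11927 over all genes tested. *Ptgs2*, which encodes the inducible cyclooxygenase COX-2, had at most 3 counts in any control sample and 133 to 670 counts in mutants (adjusted p = 0.000458, edgeR quasi-likelihood test). *Saa3*, an acute-phase protein gene, had 0 counts in controls and 127, 39 and 20 in mutants, with mutant 1 the highest (adjusted p = 0.00892 in the same edgeR test). *Ier3*, an early response gene that protects cells from death, rose from 62.6 to 81.1 FPKM to 111 to 142 FPKM (log2 fold change 0.89, adjusted p = 0.00169, edgeR quasi-likelihood test). *Csf3*, which encodes the growth factor G-CSF, had 0.26, 0.11 and 0.27 FPKM in controls and 2.82, 0.80 and 1.81 FPKM in mutants (adjusted p = 0.00477 in the same edgeR test). The lower one, named after its values were seen, was *Sod2*, the mitochondrial superoxide dismutase, with 25.2 to 25.8 FPKM in controls and 20.4 to 21.4 FPKM in mutants (log2 fold change -0.29, adjusted p = 0.0219, edgeR quasi-likelihood test).

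**Figure D5:**
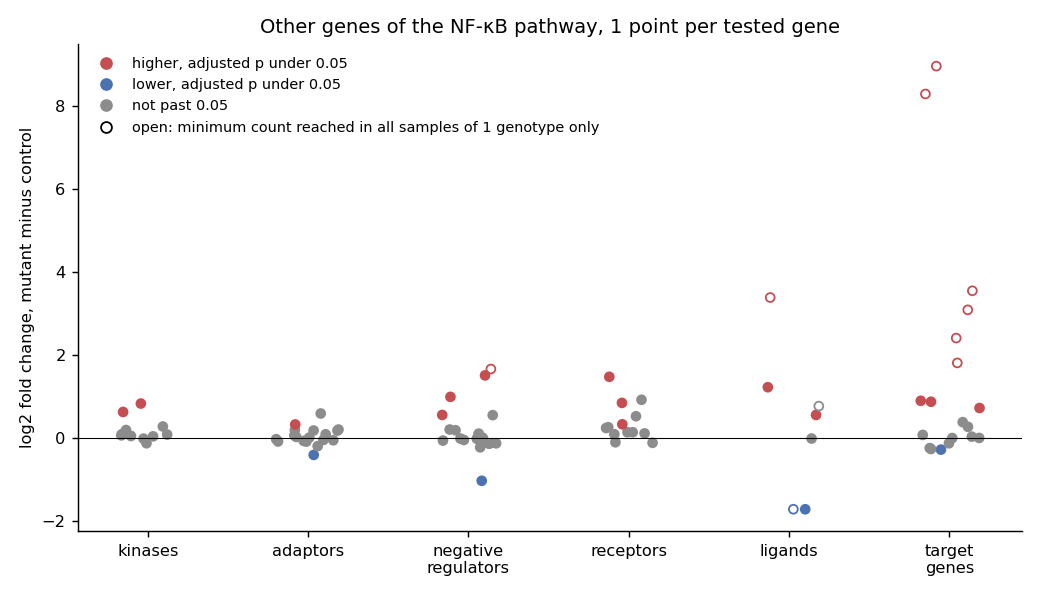
Log2 fold change of mutant over control (vertical axis) of each tested gene in the 6 pathway lists, 1 point per gene, coloured by its call at an adjusted p of 0.05; open points are genes that reached the minimum count in all samples of 1 genotype only, and the fitted values of the highest points, *Ptgs2* and *Saa3*, depend on a prior count, since their control samples had 3 or fewer counts. Of the 9 target genes that rose, 6 are open points, and the 2 lowest ligands are *Tnf* and *Ltb*.

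Markers of other cells and states were read beside these values. Of the 14 leukocyte markers, 4 were tested and 0 passed in the edgeR quasi-likelihood test, with *Ly6g* lower at an unadjusted p of 0.05 (log2 fold change -0.74, adjusted p 0.0954). In DESeq2, which tested more genes, *Lyz2*, at 0 to 1 count in controls and 3.79 to 23.7 counts in mutants, was higher (adjusted p = 0.0045). Their summed FPKM was 87.8 to 96.2 in controls and 82.4 to 127 in mutants, most of it from *Itgam* and *Cd68*. The 7 stromal markers summed to 0.35 to 0.53 FPKM in controls and 0.88 to 3.58 FPKM in mutants. Of the 2 that edgeR tested *Dcn* was higher (adjusted p = 0.00507, edgeR quasi-likelihood test). It had 1 to 3 counts in controls and 14 to 66 in mutants, so it entered the test only through the group in which it is high. In DESeq2 4 of the 7 were higher, *Dcn*, *Col1a1*, *Col3a1* and *Lum*, each with at most 3 counts in any control sample and 66 in any mutant sample. *Col1a2* (adjusted p = 0.199) and *Thy1* (adjusted p = 0.672) did not pass in DESeq2. *Kera*, at 1 to 2 counts in controls and 0 to 2 in mutants, had a DESeq2 log2 fold change of -0.73 and was given no adjusted p. These stromal markers were named after their values were seen. The 4 endothelial markers in the table summed to at most 0.25 FPKM. The 4 conjunctival markers summed to 1360 to 1590 FPKM in controls and 1070 to 1190 FPKM in mutants. Most of this came from *Krt13*, which fell (adjusted p = 0.0152, edgeR quasi-likelihood test). In the same edgeR test *Krt4* (log2 fold change -1.01, adjusted p = 0.0913) and *Krt19* (log2 fold change 0.06, adjusted p = 0.835) did not pass. *Muc5ac* did not pass the filter on low counts. Of 5 immediate early genes, which also respond to tissue handling, *Jun* and *Atf3* rose, and the list summed to 101 to 109 FPKM and 132 to 248 FPKM. Of 9 corneal epithelial markers, 1 rose and 2 fell in the same edgeR test, or 33.3%, against 13.2% of all genes tested. Their summed FPKM was 46800 to 50800 in controls and 42900 to 46600 in mutants. The marker that rose was *Krt14*. Those that fell in this edgeR test were *Krt15* (log2 fold change -0.55, adjusted p = 0.0389) and *Aldh3a1* (log2 fold change -0.25, adjusted p = 0.0466). The epidermal markers summed to at most 6.77 FPKM and the melanocyte markers to at most 1.36 FPKM. *Krt14*, the gene whose promoter drives Cre, had 150 to 203 FPKM in controls and 1474 to 2204 FPKM in mutants (adjusted p = 1.06e-05, edgeR quasi-likelihood test). The part of these differences in the levels of the 10 genes was not tested.

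The genes whose pattern was most like that of a member over the 6 samples are given as a description, since the samples fall into 2 genotype groups. For *Rela* they were *Smim10l1*, *Uck1* and *Ube2z*, with Pearson's r of 0.996, 0.995 and 0.995. For *Nfkbia* they were *Slc25a45*, *Clic4* and *Sergef*, with r of 0.997, 0.994 and 0.993. Their log2 fold changes lay between -0.65 and -0.16, so none of the 6 fell nearly as far as *Rela*.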

How the data were processed

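Total RNA of separated corneal epithelium was measured in 3 independent samples per genotype. The authors filtered single-end reads, aligned them with Bowtie2 2.2.5 and made the deposited expected counts and FPKM values with RSEM 1.2.12, per the labels and the methods. The processing notes name mm9, but the table's coordinates are those of GRCm38. Its columns of the authors' own comparison (fold changes and p-values) were not used. Between 31.5% and 32.2% of expected counts per sample were not whole and were rounded. They were tested with edgeR 4.0.16 in R 4.3.3 (TMM scaling, filterByExpr with a minimum count of 10 and total of 15, quasi-likelihood test for genotype). The SE was derived as the absolute fold change, on the log2 scale, divided by the root of F. Alternatives used DESeq2 1.42.0, limma 3.58.1 on log2(FPKM + 1) and log2(FPKM + 0.1), other scalings and filters, a replicate block, each sample left out, and the study's threshold. The main edgeR fit and the DESeq2 and limma fits were tried on simulated counts, and the other steps were not.

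The 10 genes and the lists were chosen with earlier results of these data known. Named were all 10 genes and, per pathway list, up to 4 genes with the smallest adjusted p past the test, plus *Tnfaip3*, *Ikbkb*, *Map3k14* and *Tnf*; for likeness, the 3 genes with the highest Pearson's r. Listed genes without a row were not analysed here. Replicates differed by more than counting noise.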

Additional observations from a re-analysis of the deposited data

How the results depend on the processing

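No gene of the 10 changed direction under any alternative. *Rela*, *Rel* and *Bcl3* kept their calls in each of the 14 alternative fits, with log2 fold changes of -2.78 to -2.49, 0.44 to 0.57 and 1.71 to 1.98. The number of the 10 genes past the test, 5 in edgeR with all samples, was 3 to 6 with 1 sample left out and 2 at the study's threshold. Of the other pathway genes, 27 passed, 13 to 26 with 1 sample left out and 2 at the study's threshold. Same-numbered samples of the genotypes did not deviate together (correlations of 0.037, 0.051 and -0.041), so no pairing by number was seen. With 3 samples per genotype this check cannot exclude a pairing. With a replicate block, 4 of the 10 genes passed, *Rela* had a log2 fold change of -2.75 and *Nfkbia* one of -0.34 with an adjusted p of 0.0578 in edgeR's quasi-likelihood test, and 1419 genes were called in all, against 1678. Genes called over the whole table were 857 without control 2. The cause of the lost calls was not tested. *Nfkbie* was not tested with 10 counts required in every sample.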
